A study of Mus musculus with 8 samples.

Results

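Glycolytic enzymes and lactate dehydrogenases were described here across 8 QUAD (quadriceps) muscle libraries, as 10 genes: Hk2, Pfkm, Aldoa, Gapdh, Pgk1, Pgam2, Eno3, Pkm, Ldha and Ldhb. They were taken by gene symbol from a table of read counts, and all 10 were among its 12171 genes. All mice were male C57BL/6J, 6 weeks old on arrival with 1 week to settle, and all received D-galactose (D-gal), a sugar given in excess to model ageing, under the skin at 100 mg/kg every day for 12 weeks. The D-gal + PBS group (4 mice) received buffer in the hind limb muscles, and the D-gal + MSCs group (4 mice) received 1000000 human umbilical cord mesenchymal stromal cells (MSCs) per mouse in the same muscles, every 7 days for 6 cycles. The injected muscles included QUAD itself, and no library of a mouse without D-gal was analysed here. The comparison asks how the muscle transcriptome differed after MSC injection.

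Glycolysis splits glucose into pyruvate in the cytosol and yields ATP without oxygen, and fast skeletal muscle fibres rely on it during short bursts of work. Lactate dehydrogenase then interconverts pyruvate and lactate. It is a tetramer of M subunits, encoded by Ldha and abundant in fast glycolytic fibres, and H subunits, encoded by Ldhb and abundant in heart and in slow oxidative fibres. Several other steps also have a muscle isozyme, encoded by Pfkm, Pgam2 and Eno3, beside more widely expressed ones.

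The libraries held 32772221 to 40057968 counts each. Levels are given as CPM, the counts of a gene per 1000000 counts of the library after trimmed-mean scaling, and fold changes as log2 of D-gal + MSCs over D-gal + PBS from the edgeR quasi-likelihood fit over all genes. Over the whole table the median log2 fold change was -0.003, and -0.19 under scaling by library totals. The 13 protein-coding genes of mitochondrial DNA took 16.8% ± 2.00 of counts in D-gal + PBS mice and 28.4% ± 5.91 in D-gal + MSCs mice (SD, n = 4). The defining genes of fast muscle fibres, 9 of 9 measured, summed to between 63844 and 104539 CPM in every library.

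The lactate dehydrogenase pair is shown first because the results turn on it, and 2 kinds of sequence bear on how its members are told apart and where they differ. The coding sequences of Ldha (999 bases, chromosome 7) and Ldhb (1005 bases, chromosome 6), in the GENCODE annotation of GRCm38, were identical at 716 of 1005 aligned positions (71.2%). Their longest exact shared run was 18 bases, at coding bases 699 to 716 of Ldha and 702 to 719 of Ldhb, printed here without capitals because no base differs.
shared coding run of Ldha and Ldhb: ggtggtggacagtgccta
No longer stretch of one coding sequence occurs in the other.

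The upstream windows of the same 2 genes are printed because their letters differ. Each holds the 250 bases before a RefSeq start on GRCm38.p6, and neither overlaps an annotated exon. Capitals mark matches, on either strand, to ACGTG, a form of the core of the hypoxia response element.
Ldha upstream window, chr7:46845554-46845803, plus strand: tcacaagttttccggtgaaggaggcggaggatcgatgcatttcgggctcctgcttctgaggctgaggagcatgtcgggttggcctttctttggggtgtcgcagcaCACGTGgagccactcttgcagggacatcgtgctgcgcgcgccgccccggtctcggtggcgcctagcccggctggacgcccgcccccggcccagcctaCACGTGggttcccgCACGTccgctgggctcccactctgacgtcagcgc
Ldhb upstream window, chr6:142507958-142508207, minus strand: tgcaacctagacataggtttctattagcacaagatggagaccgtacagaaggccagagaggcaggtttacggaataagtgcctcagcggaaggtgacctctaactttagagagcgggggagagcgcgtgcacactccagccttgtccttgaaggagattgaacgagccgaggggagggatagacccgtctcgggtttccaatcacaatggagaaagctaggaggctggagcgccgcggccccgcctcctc
The Ldha window held 3 stretches of ACGTG matches, and 2 of them were the palindrome CACGTG, which also matches the E-box CANNTG. The Ldhb window held neither ACGTG nor CANNTG. The other form of the core, GCGTG, was not searched for, and its letters do occur in the Ldhb window. A second Ldha window, 5′ of another start, held no ACGTG.

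RefSeq windows were given for all 10 enzymes, 17 in all, and some overlap each other. ACGTG was in 8 of the 17 windows, from 6 enzymes (Hk2, Pfkm, Aldoa, Pgk1, Pkm and Ldha), and the E-box in 12 of the 17, with none for Hk2, Gapdh or Ldhb. Of all 32851 mouse windows of that length, 16.6% held ACGTG and 66.2% held the E-box. A match is a description of letters and was not tested as a binding site.

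The 10 enzymes spanned a wide range of levels. Per kilobase of coding length, Aldoa, the aldolase of muscle that splits fructose bisphosphate, stood highest at 16694 ± 3223 CPM per kb in D-gal + PBS mice and 13750 ± 1081 in D-gal + MSCs mice (SD, n = 4). Hk2, the hexokinase of insulin-sensitive tissue that starts the pathway, stood lowest at 73.4 ± 9.10 and 90.9 ± 10.6 CPM per kb. In D-gal + PBS mice the order between them was Eno3, Ldha, Pgam2, Pkm, Pfkm, Pgk1, Gapdh and Ldhb. Ldha and Pgam2 overlapped among the mice of that group, as did Ldhb and Hk2, and no other neighbours in the order did. The gap was under 5 CPM per kb between Eno3 (lowest mouse 3535) and Ldha (highest mouse 3531), and between Pkm (lowest mouse 1569) and Pfkm (highest mouse 1567). In D-gal + MSCs mice Pgam2 stood above Ldha with overlap, Pkm and Pfkm overlapped, and Ldhb overlapped Gapdh instead of Hk2. Per kilobase of transcript length, Pgam2 stood above Ldha in both groups without overlap (lowest mouse 2149 and highest mouse 1997 in D-gal + PBS mice), and Pkm and Pfkm overlapped in both.

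**Figure D1:**
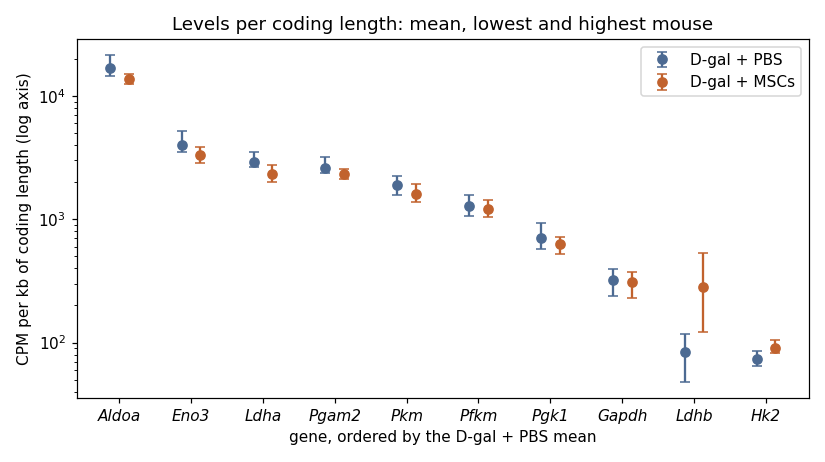
Level of each enzyme in CPM per kb of coding length, on a log axis, with the mean as a point and the lowest and highest of 4 mice as bars. Aldoa is highest and Hk2 lowest in both groups, and the Ldhb bars of the groups do not overlap.

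Gapdh, which makes the first NADH of the pathway, stood at 321 ± 74.4 and 310 ± 68.6 CPM per kb, below Aldoa and Pgk1, which act before and after it. It was among the genes that share sequence with other annotated genes. Of the 100-base windows of its main transcript, 78.0% also occurred in transcripts of 86 other genes, 81 of them annotated as pseudogenes and 2 with a row in the count table. For Pgk1, the first ATP-making enzyme, 67.0% of windows were shared with 3 pseudogenes. The share was 9.82% for Pkm, 8.80% for Ldhb and 1.32% for Ldha, and 0 for Hk2, Pfkm, Aldoa, Pgam2 and Eno3. In 75-base windows it was 80.3% for Gapdh, 67.5% for Pgk1, 19.6% for Pkm, 16.7% for Ldhb, 5.38% for Ldha and 1.53% for Aldoa. It stayed at 0 for Hk2, Pfkm, Pgam2 and Eno3. How the counting treated such reads is not given in the sources used here, so the levels of Gapdh and Pgk1 are uncertain. Their fold changes and correlations below rest on the same counts and carry the same limit.

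Of the 10 enzymes, 0 passed an adjusted p of 0.05 in edgeR, against 0% of all 12171 genes, and 0 passed in limma-voom. DESeq2, the tool the study used, called 1 enzyme, Ldhb, against 2.52% of the genes it tested. At an unadjusted p under 0.05 in edgeR, 2 enzymes passed, Hk2 and Ldhb, both higher in D-gal + MSCs mice, where 10.7% of all genes passed, 5.64% higher and 5.11% lower. Where a log2 fold change of 0.5 or more in either direction was also asked for, 1 enzyme passed against 6.83% of all genes. The groups did not overlap for 1 enzyme, Ldhb, against 6.28% of all genes. The log2 fold change was negative for 8 of 10 enzymes, with a median of -0.15, and it was negative for 50.5% of all genes. The count was also 8 with median-of-ratios factors, library totals and without mitochondrially encoded genes, and it was 5 without D-gal + PBS mouse 4.

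**Figure D2:**
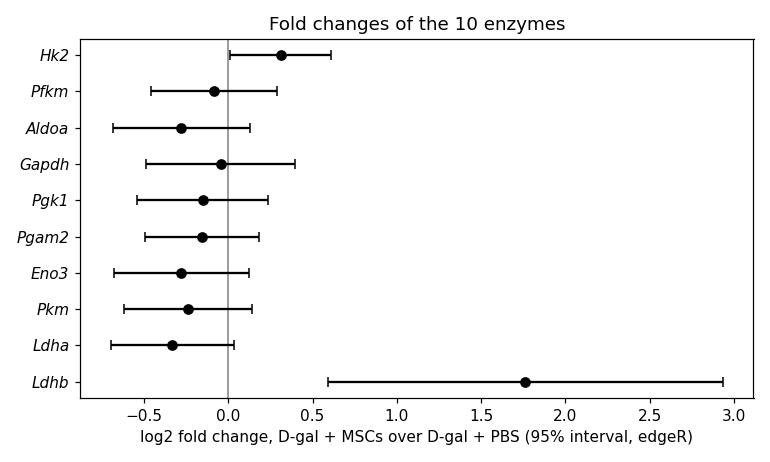
Log2 fold change of each enzyme, D-gal + MSCs over D-gal + PBS, from edgeR, with its 95% interval as a bar. The intervals of Hk2 and Ldhb lie above 0 before adjustment over all genes, and the other 8 span 0.

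Ldhb, the H subunit gene, was higher in D-gal + MSCs mice than in D-gal + PBS mice. Its level was 117, 48.6, 88.0 and 82.8 CPM in D-gal + PBS mice 1 to 4 and 156, 123, 332 and 531 CPM in D-gal + MSCs mice 1 to 4. Every D-gal + MSCs mouse lay above every D-gal + PBS mouse, but mouse 2 of the first group lay close to mouse 1 of the second, and mice 3 and 4 of the first group stood well above the rest. The group levels were 84.1 ± 28.1 and 286 ± 188 CPM (SD, n = 4). The log2 fold change was 1.76, with a standard error of 0.50 and a 95% interval of 0.59 to 2.93, or 3.39-fold. The adjusted p was 0.274 in edgeR and 0.0391 in DESeq2. Without D-gal + MSCs mice 3 and 4, a choice made after seeing the data, the log2 fold change was 0.73 with an edgeR adjusted p of 0.556.

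Ldha, the M subunit gene, did not pass in any fit that was run. It measured 2681, 2830, 2665 and 3528 CPM in D-gal + PBS mice 1 to 4 and 1992, 2731, 2113 and 2463 CPM in D-gal + MSCs mice 1 to 4. D-gal + MSCs mice 1, 3 and 4 lay below all D-gal + PBS mice, and mouse 2 lay among them. The log2 fold change was -0.33 with a standard error of 0.17 and a 95% interval of -0.70 to 0.03. Ldha and Ldhb together gave 3010 ± 403 and 2610 ± 386 CPM (SD, n = 4).

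**Figure D3:**
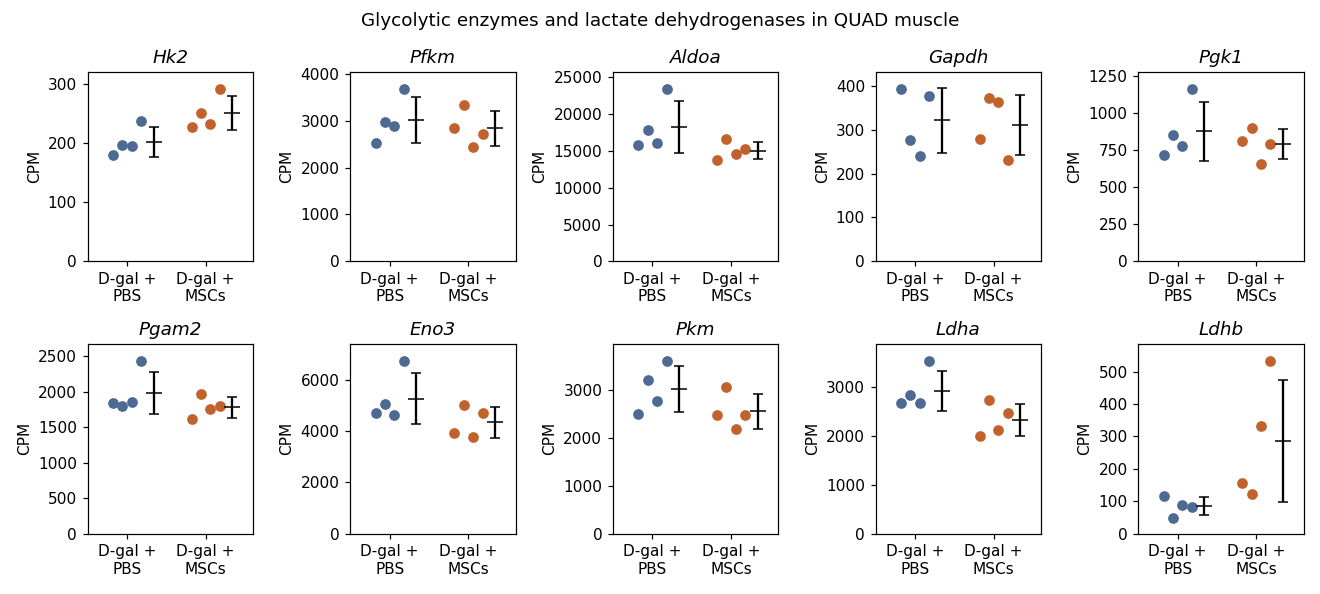
CPM of each enzyme in every mouse (points, mice 1 to 4 from left to right in each group), with the group mean and SD (n = 4) as black bars, axes starting at 0. Ldhb is the enzyme whose groups do not overlap, with D-gal + MSCs mice at 123 to 531 CPM, and D-gal + PBS mouse 4 is the highest point for 7 of the 10 enzymes.

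The Ldhb share of Ldha plus Ldhb counts gave the balance of the 2 subunit transcripts within each mouse, and it does not depend on library scaling. In D-gal + PBS mice 1 to 4 the share was 4.19%, 1.69%, 3.19% and 2.29%. In D-gal + MSCs mice 1 to 4 it was 7.27%, 4.30%, 13.6% and 17.8%. The transcripts of the M subunit gene therefore made up most of the pair in every mouse, and the lowest share after MSC injection was just above the highest share after PBS. The 95% Wilson intervals of those 2 mice overlapped, at 4.17% to 4.43% for D-gal + MSCs mouse 2 and 4.07% to 4.31% for D-gal + PBS mouse 1. Wilson intervals cover counting error only, and the counts behind each share were 78253 to 136083.

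The mean share was 2.84% ± 1.09 in D-gal + PBS mice and 10.7% ± 6.07 in D-gal + MSCs mice (SD, n = 4), a difference of 7.88 percentage points. A two-sided exact permutation test over the 70 assignments of mice gave p = 0.0286, the smallest that 4 against 4 mice can give. Over the 5 isozyme shares computed, the adjusted value of that exact test was p = 0.143. With 1 share alone at the smallest p, no adjusted value under 0.05 was possible, so the adjustment could not decide. Without D-gal + MSCs mice 3 and 4 the difference was 2.94 percentage points (exact permutation p = 0.0667, the smallest that 2 against 4 mice can give), and the groups still did not overlap.

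**Figure D4:**
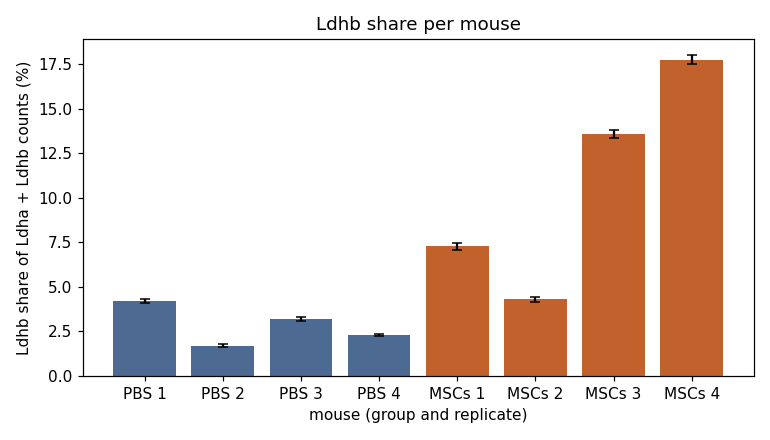
Ldhb share of Ldha plus Ldhb counts in percent for each mouse, with 95% Wilson intervals as bars. D-gal + PBS mice lie at 1.69% to 4.19% and D-gal + MSCs mice at 4.30% to 17.8%.

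In the other isozyme shares, the member made up at least 91.9% of counts in every mouse. Pfkm, the muscle phosphofructokinase of the committed step, made up 99.3% ± 0.128 and 99.2% ± 0.311 of Pfkm, Pfkl and Pfkp counts. Pgam2, the muscle phosphoglycerate mutase, made up 99.1% ± 0.151 and 99.0% ± 0.105 of Pgam1 and Pgam2 counts. Eno3, the muscle β-enolase, made up 98.1% ± 0.358 and 98.2% ± 0.328 of Eno1 and Eno3 counts. Hk2 made up 93.5% ± 1.84 and 94.4% ± 1.74 of Hk1 and Hk2 counts. None of these 4 differences passed, with exact permutation p values between 0.286 and 0.943. Values are given for D-gal + PBS mice and then D-gal + MSCs mice, as mean ± SD of 4 mice, and the counts were not divided by length. A share for Aldoa was not computed, since Aldoc has no row in the table.

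Hk2 was the only other enzyme with a positive fold change. It measured 179, 196, 196 and 238 CPM in D-gal + PBS mice 1 to 4 and 227, 251, 232 and 291 CPM in D-gal + MSCs mice 1 to 4. The groups overlapped through D-gal + PBS mouse 4. The log2 fold change was 0.31 with a standard error of 0.14 and an edgeR adjusted p of 0.446. It was 0.23 without D-gal + MSCs mouse 4. Under scaling by library totals it was 0.12, where the median over all genes was -0.19.

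Of the enzymes that follow Hk2 before the ATP-making steps, neither Pfkm nor Aldoa passed. Pfkm measured 2513, 2968, 2888 and 3673 CPM in D-gal + PBS mice and 2851, 3341, 2432 and 2718 CPM in D-gal + MSCs mice, with overlap and a log2 fold change of -0.09 ± 0.17 (SE), which was 0.02 without D-gal + PBS mouse 4. Aldoa measured 15800, 17832, 16087 and 23400 CPM against 13785, 16598, 14625 and 15219 CPM. In Aldoa, D-gal + PBS mouse 4 stood highest, and the log2 fold change was -0.28 ± 0.19 (SE), or -0.14 without that mouse.

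In the later steps, where ATP is made, the log2 fold changes of all 5 enzymes were negative in the fit of 8 libraries and their 95% intervals included 0. Gapdh, the reference gene for the quantitative PCR and protein blots of the study, measured 393, 276, 241 and 376 CPM against 278, 372, 364 and 230 CPM. The groups covered nearly the same range, and the log2 fold change was -0.05 with a 95% interval of -0.49 to 0.40, which turned positive without D-gal + PBS mouse 1 (0.08). Pgk1 measured 654.6 to 1160 CPM over the 8 mice with a log2 fold change of -0.15 ± 0.18 (SE), which was 0.01 without D-gal + PBS mouse 4. Pgam2 measured 1612 to 2431 CPM with a log2 fold change of -0.15 ± 0.15 (SE), or -0.04 without D-gal + PBS mouse 4.

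Eno3 measured 4682, 5040, 4614 and 6713 CPM in D-gal + PBS mice and 3924, 4999, 3752 and 4680 CPM in D-gal + MSCs mice, and its log2 fold change was -0.28 ± 0.18 (SE), or -0.14 without D-gal + PBS mouse 4. Pkm, the pyruvate kinase gene whose reaction ends the pathway, measured 2505, 3224, 2779 and 3611 CPM against 2493, 3075, 2199 and 2485 CPM, and its log2 fold change was -0.24 ± 0.17 (SE), or -0.15 without D-gal + PBS mouse 4. Both groups overlapped for both genes, with D-gal + PBS mouse 4 highest and D-gal + MSCs mouse 3 lowest.

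Levels of most of these enzymes varied together over the mice, but the mice did not keep 1 order. D-gal + MSCs mouse 1 was lowest for Aldoa, Pgam2 and Ldha. For Pfkm, Pgk1, Eno3 and Pkm the lowest was D-gal + MSCs mouse 3. Over the 8 mice, Pearson's r of log2 CPM was between 0.71 and 0.97 for every pair of Pfkm, Aldoa, Pgk1, Pgam2, Eno3, Pkm and Ldha, as a description over libraries that also share their scaling. Gapdh, whose counts are uncertain as given above, followed these 7 less closely, with r of 0.14 to 0.45. Hk2 did not follow them, with r of -0.12 to 0.25. D-gal + PBS mouse 4 was the highest library for 7 of the 10 enzymes, and it was also the highest for the summed fast fibre genes (104539 CPM).

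The 10 enzymes together took 3.36% to 4.33% of all counts in D-gal + PBS mice and 2.37% to 3.44% in D-gal + MSCs mice. Aldoa alone gave 50.7% ± 0.781 and 49.4% ± 1.38 of their counts (SD, n = 4). The summed counts include Gapdh and Pgk1, whose levels are uncertain as given above, so these shares are uncertain too. Of counts outside mitochondrial DNA, the enzymes took 4.59% ± 0.484 and 4.00% ± 0.306, with mice 4.13% to 5.24% and 3.74% to 4.44%. The groups overlapped on both scales, and the mitochondrially encoded share given above was higher in the group where the share of all counts was lower. D-gal + MSCs mouse 4 had the lowest enzyme share of all counts (2.37%) and the highest mitochondrially encoded share (36.6%).

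By the same measure of likeness, the 5 genes of the table most like Ldhb over the 8 mice were Myoz2 (r = 0.988), Coq8a (0.987), Atp1b1 (0.985), Lmcd1 (0.983) and Actn2 (0.981). Myoz2 encodes a Z-disc protein of slow and cardiac muscle, Coq8a a protein of coenzyme Q synthesis, Atp1b1 a sodium pump subunit and Actn2 an α-actinin of the Z-disc. After the group means were removed, r was 0.976, 0.973, 0.966, 0.960 and 0.955 for the 5 genes in that order. The genes were picked for their r over the same 8 mice, so these values are no separate check. Myoz2 measured 35.0, 6.36, 13.2 and 12.2 CPM in D-gal + PBS mice and 36.4, 24.3, 102 and 198 CPM in D-gal + MSCs mice. As with Ldhb, mice 3 and 4 of the D-gal + MSCs group were highest and D-gal + PBS mouse 2 was lowest.

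**Figure D5:**
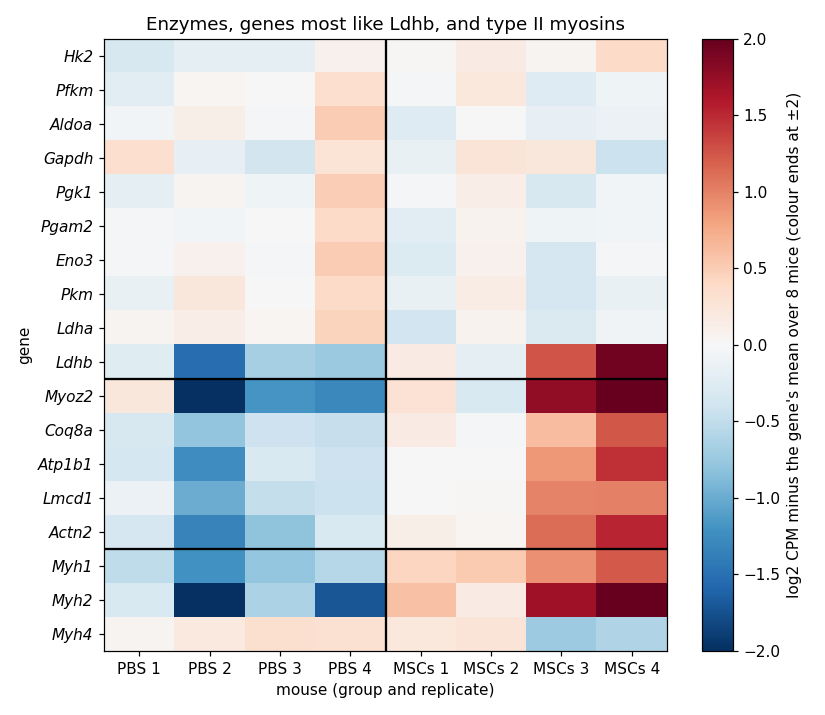
Log2 CPM of the 10 enzymes (top), the 5 genes most like Ldhb (middle) and 3 type II myosin genes (bottom) in each mouse, minus the gene's mean over 8 mice, with colours ending at ±2. Ldhb is high in D-gal + MSCs mice 3 and 4 and low in D-gal + PBS mouse 2, as are the genes under it other than Myh4, while Aldoa, Eno3 and Ldha are highest in D-gal + PBS mouse 4.

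Fibre type genes also differed between mice, and their part in the Ldhb difference was not tested. Myh1 and Myh2, the myosins of type IIX and IIA fibres, summed to 804 to 1481 CPM in D-gal + PBS mice and 2816 to 5968 CPM in D-gal + MSCs mice. Both were higher in every D-gal + MSCs mouse, with log2 fold changes of 1.55 ± 0.22 and 2.50 ± 0.64 (SE). Their adjusted p values were 8.24e-10 and 0.00813 in DESeq2, which called both, and 0.0512 and 0.231 in edgeR, which called neither. The slow fibre list (9 of 9 measured, all with positive log2 fold changes, 0 called by edgeR, 3 at an unadjusted p under 0.05) summed to 2094, 871, 1307 and 2379 CPM in D-gal + PBS mice 1 to 4 and 2719, 2301, 5963 and 11765 CPM in D-gal + MSCs mice 1 to 4. DESeq2 gave an adjusted p for 5 of the 9 and called 0. Mb, the myoglobin gene, made up 77.5% to 96.6% of that sum. Without Mb the sum was 192, 60.5, 118 and 80.4 CPM in D-gal + PBS mice and 168, 89.0, 508 and 2647 CPM in D-gal + MSCs mice, so that mice 1 and 2 of the second group lay within the range of the first. The fast fibre list (9 of 9 measured, with Myh4 as its only myosin heavy chain, all with negative log2 fold changes, 0 called by edgeR, 1 by DESeq2, 3 at an unadjusted p under 0.05) summed to 89286 to 104539 CPM and 63844 to 91659 CPM. Slow markers were near 0 in some libraries: Myh7, the slow myosin, measured 22.3, 0.23, 12.9 and 0.72 CPM in D-gal + PBS mice and 4.79, 0.40, 18.8 and 355 CPM in D-gal + MSCs mice. In bulk muscle, fewer fibres of a type and less RNA per fibre cannot be told apart.

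Markers of other cells also differed between mice, and their part was not tested. The fibroblast list (6 of 6 measured) summed to 750.0 to 1512 CPM in D-gal + PBS mice and 520.0 to 1075 CPM in D-gal + MSCs mice. All 6 of its log2 fold changes were negative (median -0.62), 4 at an unadjusted p under 0.05 in edgeR, and DESeq2 called 1. The macrophage list (6 of 6) summed to 86.7 to 142 and 48.4 to 125 CPM, with 5 of 6 log2 fold changes negative (median -0.72) and 2 genes lower at an unadjusted p under 0.05 in edgeR. The erythroid list (5 of 6) summed to 180.3 to 575 and 38.4 to 223 CPM, with 5 negative log2 fold changes, 1 of them at an unadjusted p under 0.05 in edgeR and 1 called by DESeq2. The adipocyte list (5 of 6, with 4 genes at 0 in at least 1 library) summed to 16.2 to 286 and 0.077 to 31.2 CPM, the highest being D-gal + PBS mouse 2, and all 5 log2 fold changes were negative with 0 at an unadjusted p under 0.05. The summed levels of the groups overlapped for each of these lists, as for endothelial (261.9 to 535 and 391 to 729.5 CPM) and nerve markers (55.4 to 145 and 121 to 174 CPM). All 6 endothelial genes had positive log2 fold changes, 2 at an unadjusted p under 0.05 in edgeR and 0 called by DESeq2. All 5 nerve genes had positive log2 fold changes, 1 at an unadjusted p under 0.05, and DESeq2 called 1.

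The rest of the pathway was read from 5 lists of related genes, 75 listed and 62 measured. In edgeR and limma-voom 0 of 62 passed, and DESeq2 called 2, both higher, Esrrg and Esrrb, 3.28% of the 61 it tested against 2.52% of all genes. At an unadjusted p under 0.05 in edgeR, 7 were higher and 6 lower, 21.0% of the 62 against 10.7% of all genes. With a log2 fold change of 0.5 or more in either direction as well, 5 were higher and 2 lower, 11.3% against 6.83% of all genes. The median log2 fold change of the 62 genes was -0.10. Both DESeq2 calls were in the list of transcription regulators, and each of the other lists had 0. The lists were chosen with earlier results of these data known, so an excess over all genes cannot be read as a result about them.

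Among the other glycolytic isozymes (8 of 19 measured, 6 negative, median log2 fold change -0.19), Eno1, the ubiquitous α-enolase, measured 90.6, 116, 100.3 and 97.6 CPM in D-gal + PBS mice and 76.8, 80.4, 87.4 and 75.8 CPM in D-gal + MSCs mice. All D-gal + MSCs mice lay below all D-gal + PBS mice, with a log2 fold change of -0.33 ± 0.11 (SE, edgeR adjusted p = 0.311). Gpi1, the isomerase of the step after hexokinase, had a log2 fold change of -0.24 ± 0.14 (SE).

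In the glycogen list (21 of 22 measured, 14 negative, median log2 fold change -0.19), Pygm, the muscle glycogen phosphorylase that releases glucose 1-phosphate, measured 5376, 7362, 6534 and 7430 CPM against 5006, 5976, 4370 and 4480 CPM. The groups overlapped, and the log2 fold change was -0.43 ± 0.18 (SE, edgeR adjusted p = 0.418). Ppp1r3c, which targets a phosphatase to glycogen, was at -0.79 ± 0.31 (SE) and Gbe1, the glycogen branching enzyme, at 0.65 ± 0.25 (SE) on the same scale, the latter at 0.37 without D-gal + MSCs mouse 4. Neither passed in edgeR or DESeq2.

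Lactate leaves fast fibres through MCT4, encoded by Slc16a3, and enters oxidative cells through MCT1, encoded by Slc16a1. Slc16a1 measured 48.4, 38.0, 40.8 and 53.5 CPM in D-gal + PBS mice and 49.3, 56.9, 88.2 and 132 CPM in D-gal + MSCs mice. As with Ldhb, D-gal + MSCs mice 3 and 4 were the 2 highest, but the groups overlapped through D-gal + MSCs mouse 1. The log2 fold change was 0.85 ± 0.29 (SE), with an adjusted p of 0.327 in edgeR and 0.0581 in DESeq2, and it was 0.52 without D-gal + MSCs mouse 4. Slc16a3 was at -0.40 ± 0.21 (SE), or -0.22 without D-gal + PBS mouse 4, and did not pass. The glucose transporter Slc2a3 was at -0.60 ± 0.35 (SE), or -0.95 without D-gal + MSCs mouse 2 and -0.40 without D-gal + MSCs mouse 4, and did not pass either. Of the 9 transport genes, all measured, 6 had negative log2 fold changes.

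The list of flux control and side branches had 11 of 12 genes measured, 8 of them negative, with a median log2 fold change of -0.26. In it, both glycerol phosphate dehydrogenases, which pass electrons from cytosolic NADH to mitochondria, had negative log2 fold changes. Gpd1, the cytosolic enzyme, was at -0.50 ± 0.17 (SE, edgeR adjusted p = 0.319), and Gpd2, the mitochondrial one, at -0.40 ± 0.18 (SE). Ldhd, the D-lactate dehydrogenase, was at 0.37 ± 0.15 (SE). None of the 3 passed in edgeR or DESeq2.

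The list of transcription regulators was the one of the 5 with a positive median (0.26, 13 of 13 measured, 9 positive). Esrrg, an oestrogen-related receptor of oxidative muscle, measured 8.25, 2.61, 5.87 and 7.16 CPM in D-gal + PBS mice and 13.7, 7.64, 15.2 and 23.4 CPM in D-gal + MSCs mice. The groups overlapped through D-gal + MSCs mouse 2, and the log2 fold change was 1.32 ± 0.39 (SE), with an adjusted p of 0.259 in edgeR and 0.0169 in DESeq2. Esrrb, of the same family, stood at 1.46 to 3.66 CPM in D-gal + PBS mice. D-gal + MSCs mice 1 to 4 measured 2.99, 3.20, 11.7 and 13.7 CPM, so that mice 1 and 2 lay within the D-gal + PBS range. The log2 fold change was 1.53 ± 0.54 (SE, DESeq2 adjusted p = 0.0491). Without D-gal + MSCs mice 3 and 4, a choice made after seeing the data, it was 0.19 in edgeR. Mlxipl, the carbohydrate response factor ChREBP, stood at 41.1 to 57.8 and 58.1 to 72.6 CPM without overlap, and its log2 fold change of 0.39 ± 0.14 (SE) did not pass in either tool.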

How the data were processed

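RNA of 8 QUAD muscles was sequenced by the authors, who aligned reads with HISAT2 to GRCm39 per the labels. They deposited raw whole-number counts per gene symbol, with no normalisation. How reads were counted (tool, annotation, strand) and whether genes were filtered is not given in the sources used here. The low-count filter filterByExpr removed 0 of the 12171 genes. Shares of all genes therefore refer to genes with enough counts to pass it. Groups came from the sample labels, 1 mouse per library.

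Counts were tested with edgeR 4.0.16 (trimmed-mean scaling, robust quasi-likelihood, group as the only term, Benjamini-Hochberg over 12171 genes). Alternatives were DESeq2 1.42.0, limma-voom 3.58.1, other scalings and filters, a replicate block and left-out libraries. At least 10 counts in every library were present for 11997 genes, including all 10 enzymes. Shares were compared by exact permutation of mice. Standard errors were derived from the F statistic. The fit scripts were tested on simulated data.

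All 10 enzymes were named. Up to 3 genes per pathway list with the smallest p in edgeR, and the 5 genes most like Ldhb (Pearson's r of log2 CPM, prior count 2), were named too; 1 gene so chosen is not reported here. Isozymes in a share are named there. Members and lists were chosen with earlier results of these data known. Sequences came from RefSeq and GENCODE on GRCm38, not the build of the authors, and no coordinates were converted. A planned protein comparison was replaced by coding sequences.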

Additional observations from a re-analysis of the deposited data

Results flagged for a closer look

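Of 90 groups of 4 values examined by Dixon's criterion, 5 had a mouse that stood apart from the others. By chance about 1 in 20 groups would be picked out. In D-gal + PBS mouse 4, Pgam2 measured 2431 CPM against 1806 to 1850 in the other 3 mice, and Ldha plus Ldhb together gave 3610 CPM against 2753 to 2879. In the same mouse the branching enzyme gene Gbe1 measured 67.7 CPM against 46.2 to 46.8, and the summed fast fibre genes gave 104539 CPM against 89286 to 90807. In D-gal + MSCs mouse 2 the lactate transporter gene Slc16a3 measured 313 CPM against 188 to 209.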

How the results depend on the processing

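The count of enzymes called was 0 in edgeR and under every alternative other than DESeq2, which called 1. Of 170 recomputed fold changes of the enzymes (17 alternatives each), 9 changed sign, in Gapdh, Pfkm and Pgk1; a further 3 alternatives cannot move a fold change. With 1 mouse left out, the log2 fold change of Gapdh ranged from -0.15 to 0.076 (positive without D-gal + PBS mouse 1 or 4 or D-gal + MSCs mouse 1 or 4), that of Pfkm from -0.17 to 0.024 and that of Pgk1 from -0.23 to 0.012 (both positive without D-gal + PBS mouse 4). Gapdh was at 0.0063 without D-gal + PBS mouse 2 and D-gal + MSCs mouse 4, and at 0.020 without D-gal + MSCs mice 3 and 4, where Pfkm was at 0.043. Leaving out D-gal + MSCs mice 3 and 4 was chosen after seeing the data.

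Ldhb kept a positive log2 fold change under those 17 alternatives, from 0.73 to 2.01, with adjusted p from 0.0391 to 0.736. It was 1.27 without D-gal + MSCs mouse 4 and 1.08 without D-gal + PBS mouse 2 and D-gal + MSCs mouse 4. The pathway lists had 0 calls in edgeR, 2 in DESeq2 and 1 (Esrrg, log2 fold change 1.34) with the replicate number as a block. Over all genes the count of calls was 0 in edgeR, 300 in DESeq2, 78 with the block and 54 at an adjusted p of 0.1. The cause was not tested.

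The replicate numbers were not taken to pair the mice. Deviations of same-numbered mice correlated at r from -0.003 to 0.218. Differently numbered mice were not compared, so these values cannot decide whether the numbers pair the mice. In the block Ldhb was at 1.59 (edgeR adjusted p = 0.249), and 0 enzymes were called. For the Ldhb share difference of 7.88 percentage points, sign flips over the 4 numbered pairs gave an exact p of 0.125. That is the smallest 4 pairs allow, so 0 of 5 isozyme shares could pass an unadjusted 0.05. Unpaired there was 1, and 0 after adjustment, which 1 share alone at the smallest p could not pass. Leaving out 1 mouse gave differences of 5.54 to 10.02 percentage points, with exact permutation p from 0.0286 to 0.114 and 0 to 1 shares past an unadjusted 0.05. The difference was 5.16 points without D-gal + PBS mouse 2 and D-gal + MSCs mouse 4 (exact permutation p = 0.1) and 2.94 points without D-gal + MSCs mice 3 and 4 (p = 0.0667 by the same exact test). These are the smallest p that 3 against 3 and 2 against 4 mice can give, so 0 shares could pass 0.05.

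The Pfkm share difference of -0.017 percentage points was positive as a log2 ratio (0.034), without D-gal + PBS mouse 4 or D-gal + MSCs mouse 3 (range over left-out mice -0.111 to 0.131) and without D-gal + MSCs mice 3 and 4 (0.159). The Eno3 share difference of 0.082 was negative without D-gal + PBS mouse 2 or D-gal + MSCs mouse 2 or 4 (range over left-out mice -0.023 to 0.247), and at -0.106 without D-gal + PBS mouse 2 and D-gal + MSCs mouse 4. Per transcript length, Gapdh stood at 226 and 219 in CPM per kb in place of 321 and 310. Removing low-count genes by filterByExpr removed 0 genes.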
